A study of Mus musculus with 24 samples.

Results

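The zinc finger protein (Zfp) genes of the mouse code for a large family of mostly DNA-binding proteins, and 305 of them were followed in cultured microglia, the macrophages that reside in the brain. They were taken as every gene of the authors' normalized table whose symbol is Zfp and a number only, which gave 305 of 12889 genes there. Zfp36 was left out, because it encodes an mRNA decay factor with another kind of zinc finger. The count table lists 333 such symbols, and the 28 that the normalized table does not hold were not used. All 305 passed the filter on low counts, among 13294 genes tested. The cells came from newborn mice (age label p0) and were cultured before treatment for 3 h. Mice without CD14 carried the B6.129S4-Cd14tm1Frm/J allele (KO), and wild-type mice were C57BL/6 (WT). In each genotype, cultures received mouse fibronectin (FN) at 100 µg/ml or Re-LPS, a short lipopolysaccharide, at 10 or 0.1 ng/ml, or were left untreated. Each of the 8 groups held 3 libraries, described by the submitters as independent preparations, and the number of animals behind a preparation is not given in the sources used here. CD14 was absent from all cells of the KO mice, not from microglia alone.

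Most mouse Zfp proteins carry rows of C2H2 fingers, short loops that each hold a zinc ion and contact DNA bases. Many also carry a KRAB box, which recruits the corepressor TRIM28 and through it the histone methyltransferase SETDB1, and such proteins are best known for silencing transposable elements in early embryos. CD14 is a surface co-receptor that hands LPS to the TLR4 complex, which then switches on NF-kB and interferon-driven transcription in macrophages.

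Total counts ran from 14939019 to 22143774 per library. Levels are given as CPM, a library's counts relative to its size after TMM scaling, a trimmed mean that offsets differences in RNA composition. Changes are log2 fold changes between groups of 3 libraries. Their standard error was calculated back from the test, as the size of the change over the square root of its F value. The spread behind it comes from the fit of all 24 libraries, and it is unreliable for changes near 0. The quasi-likelihood test of edgeR, in a fit without a replicate block, gave the p-values, adjusted by Benjamini-Hochberg over all tested genes. Genes with an adjusted p under 0.05 count as called, and "rose" and "fell" are used of called genes only. Cd14 stood at 2.14 to 6.37 CPM in the 12 KO libraries, against 338 to 5330 CPM in the 12 WT libraries. The 10 microglial markers summed to between 6000 and 9140 CPM in every library, against 11.2 to 42.3 CPM for 7 astrocyte markers, 0.949 to 37.4 CPM for 5 neuronal, 0.314 to 2.8 CPM for 6 fibroblast and vessel and 0 to 0.625 CPM for 3 other leukocyte markers found in the count table. The microglial sum was lower, with no overlap, at LPS 10 ng/ml in both genotypes and with FN in WT cells. It was 6000 to 7020 CPM in KO cells at LPS 10 ng/ml and 7560 to 8320 CPM with FN, against 7830 to 8240 CPM in untreated KO cells. In WT cells it was 6540 to 7280 CPM at LPS 10 ng/ml and 6570 to 7030 CPM with FN, against 8030 to 9140 CPM untreated. The sum of 10 oligodendrocyte lineage markers was 120 to 183 CPM over the KO groups, against 137 to 456 CPM over the WT groups, where it was 188 to 456 CPM with LPS 10 ng/ml, 215 to 439 CPM with FN and 137 to 365 CPM untreated. Their median log2 difference between KO and WT was -1.63 in untreated cells and -1.88 with FN, and that of the astrocyte markers was -0.13 and -1.17. The part of these shifts in the results was not tested. In WT replicate 3 at LPS 0.1 ng/ml, Zfp genes took 0.593% of the unscaled counts, against 0.492% and 0.486% in the other 2. On the TMM scale their sum there was 5093 CPM, between the 5109 and 4696 CPM of the others, so that this library stood apart in single genes and not in the sum. As a check of stimulation, Tnf, Il6, Cxcl10, Ifit1 and Nfkbia all rose in WT cells with each stimulus and in KO cells at LPS 10 ng/ml, while 4 of them did in KO cells with FN and 2 at LPS 0.1 ng/ml. Counts that rest on the WT replicate 3 library are given with and without it. For fits that leave out 1 library the share over all tested genes was not computed, so such counts show only how the number of calls moves. The ribosomal RNA precursor Rn45s took 3.62% to 8.21% of counts in 3 libraries, namely the same library, WT replicate 3 at LPS 10 ng/ml and KO replicate 2 at LPS 0.1 ng/ml. In bulk RNA, fewer cells that express a gene and less of its RNA per cell cannot be told apart.

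The 305 genes spanned a wide range of levels. Their mean level over the 24 libraries ran from 0.311 to 194 CPM, with a median of 8.24 CPM. Per length of exon, Zfp263 was the highest with a mean of 36.6 RPKM, followed by Zfp513 with 26.1 RPKM and Zfp710 with 22.4 RPKM, while the median member had 1.93 RPKM. Over the 6 comparisons of stimulated with untreated cells, 80 of the 305 were called in none, a count not made over all tested genes. All 305 were placed in the GENCODE annotation of GRCm38, where 303 are protein-coding and 12 now go by another symbol. Translated GENCODE transcripts held a median of 10 C2H2 fingers per protein, and 36 at most. A KRAB pattern was found in 157 of the 303 proteins and not in the other 146. Genes with a match are called KRAB genes below. The pattern is strict, so a protein without a match is not shown to lack a KRAB box. The genes lie in clusters, with 76 on chromosome 7, 39 on chromosome 17 and 28 on chromosome 13. Of the 305 genes, 62 share over 10% of their 50-base windows with another gene of any kind, on either strand, and their counts are less certain.

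In untreated cells no single Zfp gene was told apart between the 2 genotypes. No Zfp gene was called between untreated KO and WT cells by edgeR, DESeq2 or limma, and none had an unadjusted p under 0.05. Some p-values under 0.05 would be expected even without any difference. The fit without a replicate block may thus have been too strict here, and differences may have gone uncalled. Among all tested genes 0.00752% were called. The median log2 difference over the 305 genes was 0.05, against 0.01 over all tested genes. Of the Zfp genes 31.5% lay below 0, against 46.5% of all genes, a small tilt towards KO cells that was not tested. Their summed level was 5452 to 6067 CPM in KO cells and 5272 to 5755 CPM in WT cells.

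**Figure D1:**
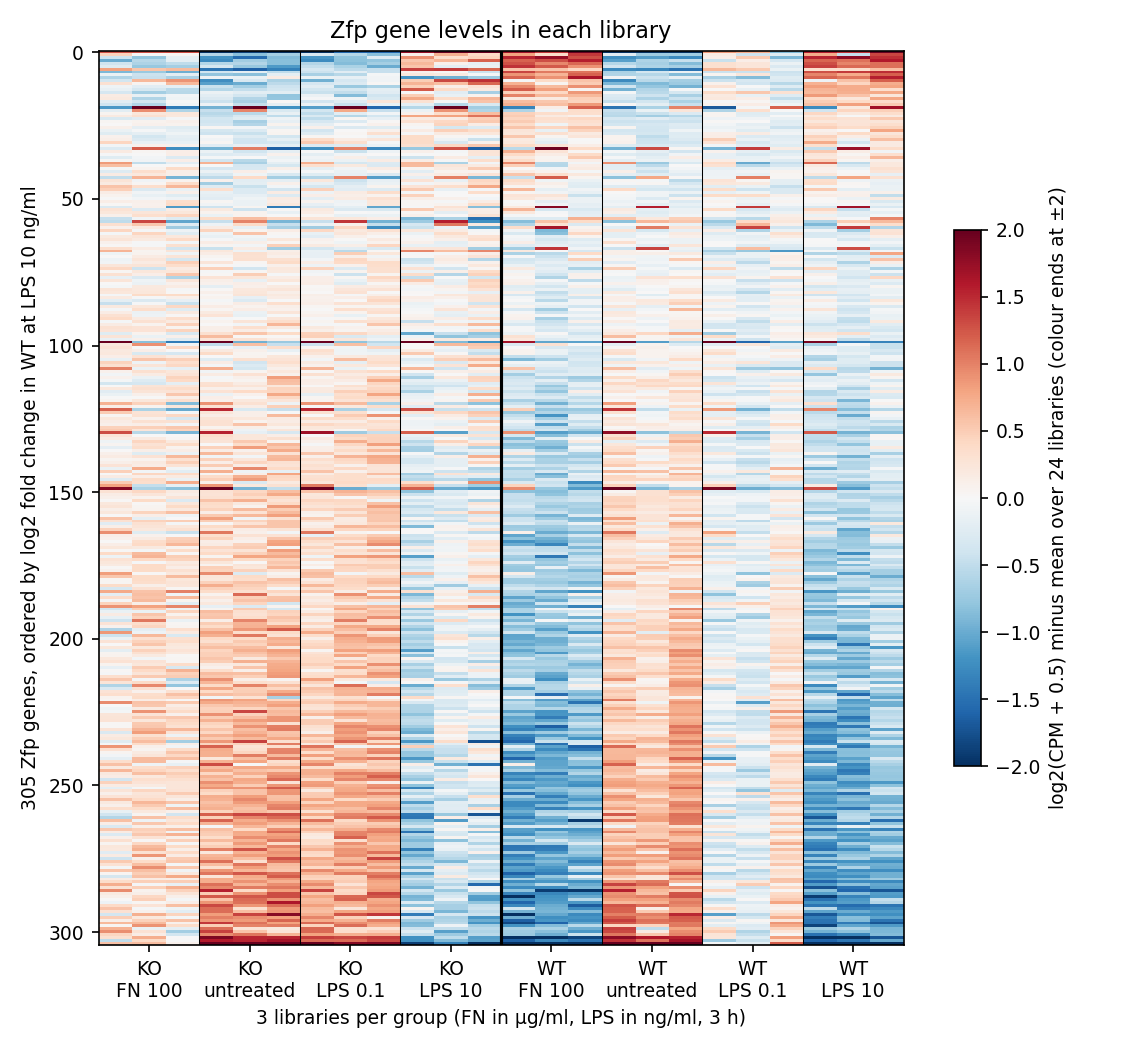
Level of 305 Zfp genes (rows, ordered by their log2 fold change in WT cells at LPS 10 ng/ml against untreated) in the 24 libraries (columns, KO left and WT right), as log2(CPM + 0.5) minus the gene's mean over all libraries. Most rows are blue in WT cells with FN or LPS 10 ng/ml and red in untreated cells of both genotypes, and a short band of rows at the top shows the reverse.

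Most of these genes were lower in WT cells with the high dose of LPS. At LPS 10 ng/ml, 175 of the 305 Zfp genes fell (57.4%) and 31 rose (10.2%), whereas 26.1% of all tested genes fell and 23.3% rose, 49.4% in all. Their median log2 fold change was -0.83, against -0.01 over all genes. Without composition scaling, on library totals alone, the median of all genes itself moves to -0.80 and that of the Zfp genes to -1.63, so that the distance between them is nearly the same, but 250 then fall (82%, against 55.7% of all genes) and 11 rise. Of the 175 that fell, 97.7% had all 3 stimulated libraries below all 3 untreated ones, as had 97.9% of all genes that fell.

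Zfp395 fell the most. Its human counterpart ZNF395 is a DNA-binding protein induced by low oxygen, and the gene lies on chromosome 14 from 65358389 to 65398930 (GRCm38, plus strand). It had 0.661, 1.12 and 0.551 CPM in WT cells at LPS 10 ng/ml, against 65.8, 56.4 and 64.0 CPM in untreated WT cells, a log2 fold change of -6.29 ± 0.39 (adjusted p = 5.12e-10). No stimulated library came near an untreated one. Zfp810, a KRAB gene, had 0.743, 0.898 and 1.38 CPM in WT cells at LPS 10 ng/ml, against 20.7, 18.1 and 17.3 CPM in untreated WT cells (-4.22 ± 0.37, adjusted p = 2.42e-08). Zfp791, another KRAB gene, had 0.0826, 0.150 and 0.367 CPM in WT cells at LPS 10 ng/ml, against 4.31, 3.22 and 5.08 CPM in untreated WT cells (-4.37 ± 0.54, adjusted p = 1.56e-06). The stimulated level of Zfp791 rests on 7 reads in all, and that of Zfp108 (-4.14 ± 0.65, adjusted p = 2.81e-05) on 4. The next falls ran from -2.97 for Zfp248 to -2.80 for Zfp273 and took in Zfp41, Zfp398, Zfp69 and Zfp760.

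Rises were fewer, and some were large. Zfp811, a KRAB gene with 13 fingers, had 18.5, 17.1 and 31.0 CPM in WT cells at LPS 10 ng/ml, against 0.468, 0.899 and 0.543 CPM in untreated WT cells (5.10 ± 0.68, adjusted p = 4.48e-06). Every stimulated library was far above every untreated one. Its neighbour Zfp871, on the same strand of chromosome 17, had 153, 159 and 144 CPM in WT cells at LPS 10 ng/ml, against 131, 131 and 137 CPM in untreated WT cells, and was not called (0.19 ± 0.15, adjusted p = 0.304). Zfp871 changes sign on library totals, to -0.60. Zfp800 had 133, 161 and 128 CPM in WT cells at LPS 10 ng/ml, against 19.5, 21.3 and 18.9 CPM in untreated WT cells (2.82 ± 0.31, adjusted p = 4.31e-07). Zfp263, whose human counterpart ZNF263 is a SCAN-domain repressor, had 175, 175 and 209 CPM in WT cells at LPS 10 ng/ml, against 57.2, 55.3 and 49.1 CPM in untreated WT cells (1.79 ± 0.15, adjusted p = 1.92e-08). Zfp281, which binds GC-rich promoters and helps control pluripotency genes in mouse embryonic stem cells, had 170, 144 and 199 CPM in WT cells at LPS 10 ng/ml, against 56.5, 57.7 and 47.3 CPM in untreated WT cells (1.67 ± 0.21, adjusted p = 2.06e-06). Zfp697, Zfp319, Zfp382, Zfp945, Zfp961 and Zfp827 rose by log2 fold changes of 2.15 down to 1.53, of which only that of Zfp827 loses its call on library totals. Among the uncalled, Zfp106, an RNA-binding protein that motor neurons need, had the highest level, with 176, 173 and 174 CPM in WT cells at LPS 10 ng/ml, against 219, 208 and 201 CPM in untreated WT cells. Those groups did not overlap, yet the change missed the threshold (-0.26 ± 0.12, adjusted p = 0.0718), which it passes with a replicate block, with a filter at 5 CPM and on library totals.

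**Figure D2:**
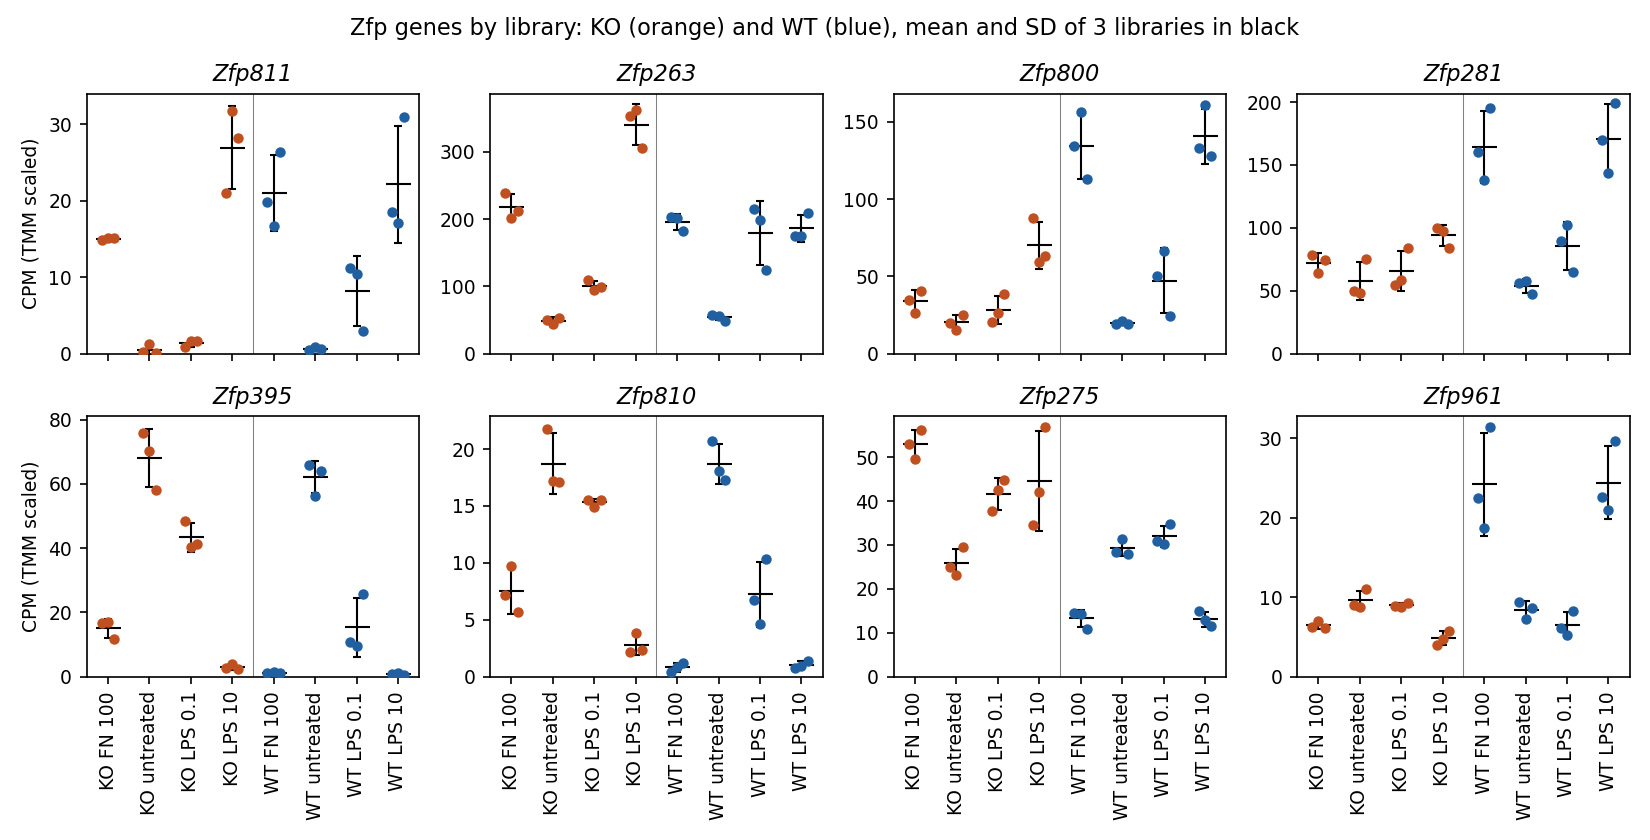
Level in CPM (TMM scaled) of 8 Zfp genes in each of 24 libraries (points; KO orange, WT blue), with the mean and SD of the 3 libraries of a group in black. Zfp395 and Zfp810 are highest in untreated cells, Zfp811, Zfp263, Zfp800 and Zfp281 are highest with FN or LPS 10 ng/ml, and Zfp275 and Zfp961 differ between the genotypes once stimulated.

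The 250 bases before the start of 2 genes that rose (Zfp811 and Zfp263) and 2 that fell (Zfp810 and Zfp108) in WT cells at LPS 10 ng/ml are shown, so that promoters of members that moved in opposite directions can be compared. They are RefSeq sequences of GRCm38.p6, read along the gene: chr17:32809932-32810181 (minus strand), chr16:3743849-3744098 (plus), chr9:22307639-22307888 (minus) and chr7:24254544-24254793 (plus). Capitals mark matches, on either strand, to an NF-kB-like pattern (GGG and CC with any 5 bases between them), an interferon response element-like pattern (GAAA and GAAA with any 2 bases between them) or a ZNF143-like pattern (ACTACAA).
Zfp811: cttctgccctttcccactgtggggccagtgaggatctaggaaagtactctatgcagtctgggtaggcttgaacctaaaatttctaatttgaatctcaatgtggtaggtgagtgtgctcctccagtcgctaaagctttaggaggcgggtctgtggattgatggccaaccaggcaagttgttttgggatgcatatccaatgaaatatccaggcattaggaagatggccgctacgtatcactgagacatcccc
Zfp263: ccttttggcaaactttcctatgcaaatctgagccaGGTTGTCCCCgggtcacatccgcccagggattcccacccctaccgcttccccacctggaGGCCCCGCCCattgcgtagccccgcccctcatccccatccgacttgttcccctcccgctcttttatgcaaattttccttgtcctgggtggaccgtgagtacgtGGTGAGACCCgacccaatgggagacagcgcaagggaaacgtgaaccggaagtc
Zfp810: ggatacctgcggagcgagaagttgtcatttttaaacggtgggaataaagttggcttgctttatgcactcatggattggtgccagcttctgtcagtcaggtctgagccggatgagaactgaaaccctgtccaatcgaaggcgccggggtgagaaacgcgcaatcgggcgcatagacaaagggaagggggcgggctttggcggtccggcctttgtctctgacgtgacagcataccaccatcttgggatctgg
Zfp108: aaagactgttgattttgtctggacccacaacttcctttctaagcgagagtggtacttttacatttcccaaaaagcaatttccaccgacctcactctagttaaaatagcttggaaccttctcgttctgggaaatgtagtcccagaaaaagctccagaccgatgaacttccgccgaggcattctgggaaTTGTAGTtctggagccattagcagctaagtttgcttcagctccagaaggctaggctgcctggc
Zfp263 held 3 matches to the NF-kB-like pattern, Zfp108 held 1 to the ZNF143-like pattern, and Zfp811 and Zfp810 held none of the 3 patterns. The genes shown were picked by hand. Of other windows read, those of Zfp281, which rose, and Zfp398, which fell, each held an NF-kB-like match. The first of 2 windows of Zfp800, which rose, and of Zfp791, which fell, held none of the 3 patterns. RefSeq windows were found for 251 of the 305 genes, with 316 windows in all. The NF-kB-like pattern is loose, and 45.8% of all 32851 mouse windows held it, against 60% of 35 windows of Zfp genes that rose, 49.5% of 186 windows of those that fell and 60% of 95 windows of those not called, so that the share was the same in genes that rose and in uncalled ones. The interferon response element-like pattern was in 2.86% of windows of genes that rose and 2.15% of those that fell, against 2.98% of all windows. The ZNF143-like pattern was in 2.86% of windows of genes that rose and 7.53% of those that fell, against 2.81% of all windows. Windows of genes that rose had a median GC content of 58% and those of genes that fell 53.4%.

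The share that fell was 66.9% among genes with the KRAB pattern and 46.6% among those without it. In WT cells at LPS 10 ng/ml, 105 of the 157 KRAB genes fell and 11 rose, and their median log2 fold change was -1.10. Of the 146 without the pattern, 68 fell and 20 rose, with a median of -0.42. With FN in WT cells the shares that fell were 69.4% and 46.6%, and in KO cells at LPS 10 ng/ml they were 50.3% and 32.9%. KRAB genes are expressed at lower levels, with a median of 5.71 CPM against 16.9 CPM. Among genes with a mean of at least 8 CPM, a limit set after the levels were known, 64.2% of 53 KRAB genes fell in WT cells at LPS 10 ng/ml, against 43.8% of 105 others, and under that limit 68.3% of 104 fell, against 53.7% of 41. These shares are given without a test, since the genes are not independent replicates.

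**Figure D3:**
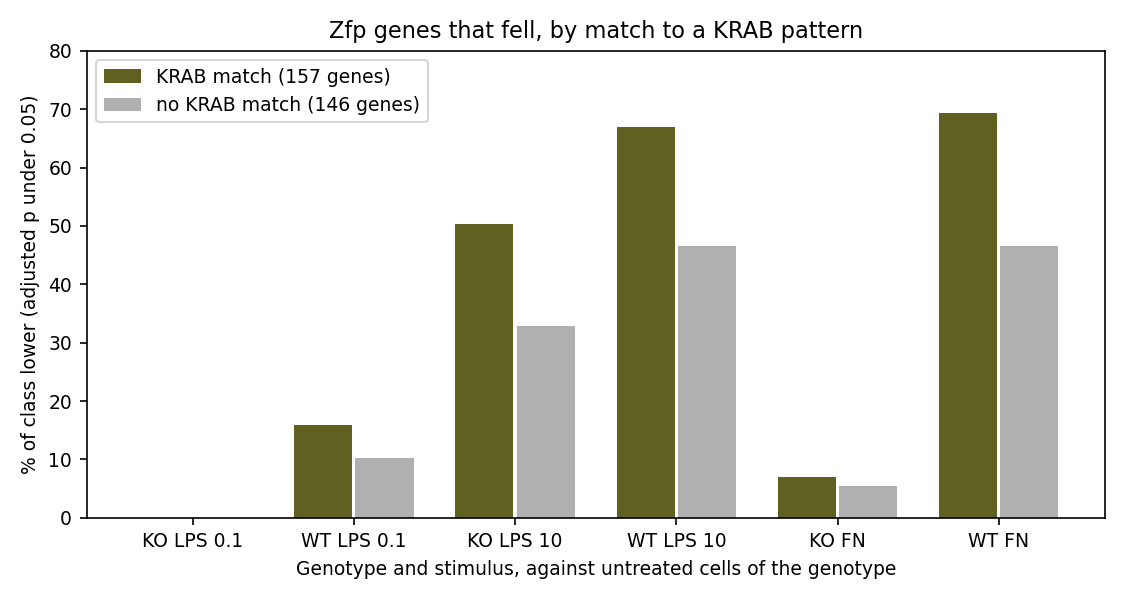
Percentage of Zfp genes that fell (adjusted p under 0.05) in each stimulated group against untreated cells of its genotype, for 157 genes with a KRAB pattern in their protein (dark) and 146 without it (light). The dark bar is the taller one in the 5 comparisons that have any fall.

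Fibronectin also lowered more of these genes than it raised in WT cells, set against the same untreated libraries. With FN, 179 Zfp genes fell and 32 rose in WT cells, against 26.5% and 23.7% of all genes (50.2% together), and the median log2 fold change was -0.92. On library totals the split is 251 and 13, with 82.3% falling against 55.6% of all genes. Zfp395 had 1.11, 1.31 and 1.08 CPM in WT cells with FN, against 65.8, 56.4 and 64.0 CPM in untreated WT cells (-5.72 ± 0.38, adjusted p = 8.82e-10). Zfp811 had 19.9, 16.7 and 26.4 CPM in WT cells with FN, against 0.468, 0.899 and 0.543 CPM in untreated WT cells (5.02 ± 0.68, adjusted p = 5.08e-06). Zfp167, now named Zkscan7, fell by 3.52 ± 0.52 on the log2 scale (adjusted p = 1.53e-05), and its stimulated level rests on 9 reads. Zfp759 and Zfp493 fell by 2.92 and 2.91, and Zfp513 rose by 1.55 ± 0.17 (adjusted p = 3.7e-07). Set directly against LPS 10 ng/ml in WT cells, FN differed in no Zfp gene by edgeR, DESeq2 or limma, with 4 genes at an unadjusted p under 0.05, and 0% of all tested genes were called. The median size of the difference was 0.12 on the log2 scale. The unadjusted 95% interval, built on the standard error calculated back from the test, reached a median of 0.52 to each side, so smaller differences may have gone uncalled. That interval is approximate, since this error is unreliable for changes near 0.

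**Figure D4:**
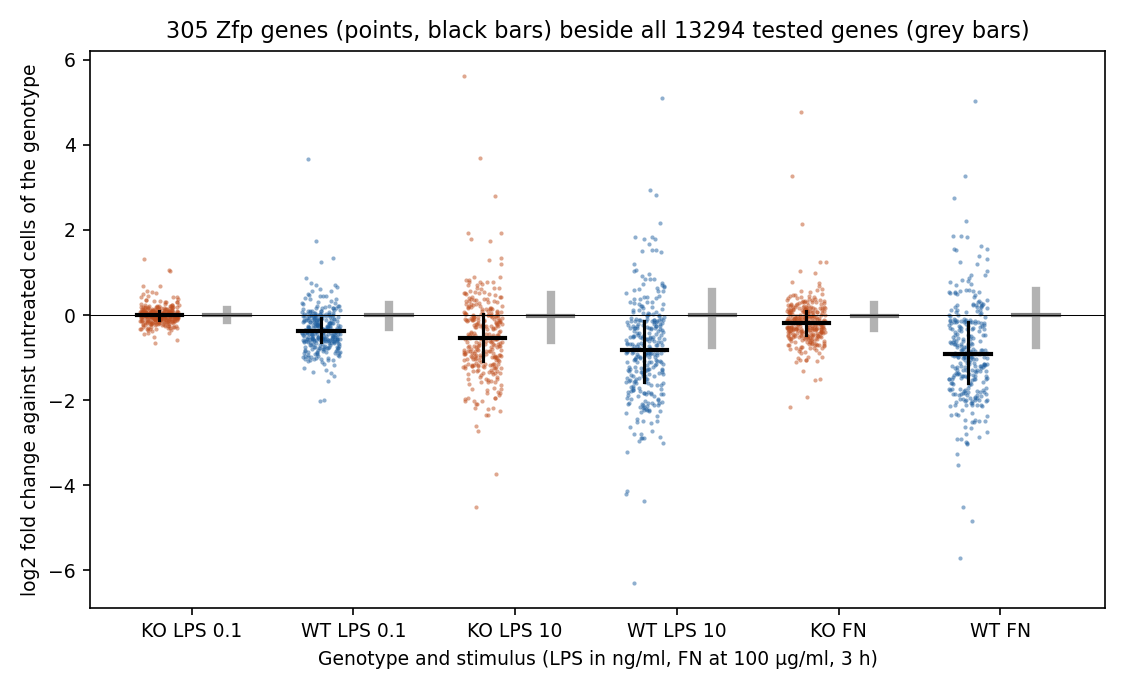
Log2 fold change of 305 Zfp genes (points; KO orange, WT blue) in each stimulated group against untreated cells of its genotype, with their median and quartiles (black), beside the median and quartiles of all 13294 tested genes (grey). The black median lies at -0.83 for WT LPS 10 ng/ml, -0.92 for WT FN, -0.54 for KO LPS 10 ng/ml and -0.01 for KO LPS 0.1 ng/ml, while the grey medians lie near 0.

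The low dose of LPS gave fewer calls in WT cells. At LPS 0.1 ng/ml in WT cells 40 Zfp genes fell and 9 rose, against 5.66% and 9.94% of all genes, and the median log2 fold change was -0.39. Zfp811 had 11.2, 10.4 and 2.97 CPM in WT cells at LPS 0.1 ng/ml, against 0.468, 0.899 and 0.543 CPM in untreated WT cells (3.67 ± 0.65, adjusted p = 5.02e-04). Zfp263 had 215, 198 and 125 CPM in WT cells at LPS 0.1 ng/ml, against 57.2, 55.3 and 49.1 CPM in untreated WT cells (1.74 ± 0.15, adjusted p = 2.93e-07). Zfp395 had 10.7, 9.38 and 25.8 CPM in WT cells at LPS 0.1 ng/ml, against 65.8, 56.4 and 64.0 CPM in untreated WT cells (-2.02 ± 0.31, adjusted p = 1.26e-04). In all 3 genes replicate 3 lay closest to untreated cells. The other rises were those of Zfp800, Zfp319, Zfp213, Zfp513, Zfp281, Zfp598 and Zfp131, at 1.24 down to 0.37, and falls beside Zfp395 included Zfp791 (-2.0), Zfp760 (-1.55), Zfp810 (-1.37) and Zfp398 (-1.34). The calls of Zfp281, Zfp131 and Zfp760 end without replicate 1 or replicate 2 at LPS 0.1 ng/ml and without untreated replicate 3, for the first 2 also without any other untreated library, and that of Zfp800 without replicate 2 at LPS 0.1 ng/ml. On library totals Zfp281, Zfp131, Zfp213 and Zfp598 also lose theirs. Without replicate 3 at LPS 0.1 ng/ml 85 genes fell, without replicate 1 there 16, without replicate 2 there 12, and without untreated WT replicate 1 or 3 the count was 23 or 22. With the replicate number as a block 158 fell (51.8%) and 18 rose (5.9%), against 20.4% and 21.2% of all genes in that fit. Without the 3 Rn45s-rich libraries 83 fell (27.2%, against 7.7% of all genes), and on library totals 85 fell (27.9%, against 12%) and 5 rose.

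More calls were made between the doses. Between LPS 10 and 0.1 ng/ml in WT cells 109 Zfp genes were lower and 21 higher at the high dose, against 17.4% and 14.8% of all genes; 79 were called in all without WT replicate 3 at 0.1 ng/ml, 73 without the Rn45s-rich libraries (23.9%, against 17.9% of all genes) and 222 on library totals (72.8%, against 52.3%). Along untreated, 0.1 and 10 ng/ml, the group means of 214 of the 305 genes fell at each step in WT cells and those of 41 rose at each step. The same count was not made over all tested genes, so this order is not shown to be particular to Zfp genes. Zfp395, Zfp810, Zfp41, Zfp69, Zfp362 and Zfp652 were among the largest further falls, with log2 fold changes between the doses of -4.27 to -1.62. Zfp263 took another course, since its mean in WT cells was 53.8 ± 4.22 CPM untreated, 179 ± 47.7 CPM at 0.1 ng/ml and 187 ± 19.4 CPM at 10 ng/ml (SD, n = 3). Zfp961 and Zfp945 rose only between the 2 doses by their means: Zfp945 had 12.2 ± 2.27, 11.5 ± 0.0887 and 41.8 ± 2.78 CPM at those 3 levels, and Zfp961 8.39 ± 1.10, 6.51 ± 1.58 and 24.4 ± 4.62 CPM.

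Without CD14, few of these genes were called at the low dose. No Zfp gene fell in KO cells at LPS 0.1 ng/ml by edgeR, DESeq2 or limma, with 1 at an unadjusted p under 0.05, and 2 rose, against 0.00752% and 0.722% of all genes (0.73% together). Zfp263 had 109, 95.2 and 99.2 CPM in KO cells at LPS 0.1 ng/ml, against 49.8, 44.2 and 53.4 CPM in untreated KO cells (1.04 ± 0.15, adjusted p = 8.58e-04). The other was Zfp275 (0.69 ± 0.16, adjusted p = 0.0477), with 37.7, 42.6 and 44.8 CPM in KO cells at LPS 0.1 ng/ml and 25, 23.2 and 29.5 CPM in untreated KO cells. Its groups did not overlap, but the call ends when any one of those 6 libraries is left out and under 4 other settings (RLE scaling, library totals, no filter, without the Rn45s-rich libraries), while with the replicate block 4 genes rose (1.31%, against 3.08% of all genes). The count of rises was 1 without any of 19 of the 24 libraries, those of other groups included, and in a fit of the 2 groups alone.

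At the high dose most of the called genes fell in KO cells too. At 10 ng/ml 129 Zfp genes fell and 29 rose in KO cells, against 21.6% and 21.2% of all genes (42.9% together), with a median log2 fold change of -0.54. On library totals the split is 211 and 12, with 69.2% falling against 42.3% of all genes, and with the replicate block 44 rose (14.4%, against 31.8% of all genes). Zfp811 had 21.0, 31.7 and 28.2 CPM in KO cells at LPS 10 ng/ml, against 0.241, 1.25 and 0.0555 CPM in untreated KO cells (5.62 ± 0.69, adjusted p = 3.07e-06). Zfp263 had 353, 362 and 306 CPM in KO cells at LPS 10 ng/ml, against 49.8, 44.2 and 53.4 CPM in untreated KO cells (2.79 ± 0.16, adjusted p = 4.62e-10). Zfp395 had 2.60, 3.98 and 2.24 CPM in KO cells at LPS 10 ng/ml, against 75.9, 70.3 and 58.0 CPM in untreated KO cells (-4.52 ± 0.35, adjusted p = 1.14e-08). None of these groups overlapped. Zfp719 (1.74) and Zfp598 (1.35), a ubiquitin ligase that senses collided ribosomes, were among the other rises, and Zfp608 (-2.62), which represses the Rag genes in mouse thymocytes, and Zfp618 (-2.19) among the other falls. Zfp558 (1.28) loses its call on library totals. Between LPS 10 and 0.1 ng/ml in KO cells 123 genes were lower and 21 higher, against 18.5% and 18.3% of all genes (36.7% together), and 217 were called with the replicate block (71.1%, against 62.8% of all genes).

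Fibronectin gave fewer calls in KO cells. With FN 19 Zfp genes fell and 12 rose in KO cells, against 7.17% and 9.23% of all genes. The median log2 fold change was -0.19, against -0.02 over all genes, and 68.9% of Zfp genes lay below 0, against 52% of all genes. Zfp395 had 16.6, 17 and 11.6 CPM in KO cells with FN, against 75.9, 70.3 and 58.0 CPM in untreated KO cells (-2.17 ± 0.31, adjusted p = 6.97e-05). Zfp811 had 14.9, 15.1 and 15.2 CPM in KO cells with FN, against 0.241, 1.25 and 0.0555 CPM in untreated KO cells (4.78 ± 0.67, adjusted p = 5.55e-05). Zfp263 had 239, 202 and 212 CPM in KO cells with FN, against 49.8, 44.2 and 53.4 CPM in untreated KO cells (2.15 ± 0.16, adjusted p = 3.58e-08). Zfp719 (1.25), Zfp275 (1.03), Zfp871 (0.78) and Zfp598 (0.69) followed among the rises, and Zfp791 (-1.92), Zfp608 (-1.53) and Zfp810 (-1.31) among the falls. With the replicate block 92 fell (30.2%) and 35 rose (11.5%), against 22.5% and 21.5% of all genes in that fit, so that whether their share of falls passes that of all genes depends on the model. The count of falls was 9 without KO FN replicate 1, 10 without KO FN replicate 3 and 11 without untreated KO replicate 2, and on library totals the split is 22 and 7. Set against LPS 10 ng/ml in KO cells, 44 genes were higher and 11 lower with FN, against 7.55% and 9.43% of all genes, and Zfp395 was the first of those that were higher (2.35 ± 0.32, adjusted p = 6.94e-05). In all 55 were called there, 24 without KO FN replicate 2, 26 without KO LPS 10 ng/ml replicate 1, 131 on library totals (43%, against 30% of all genes) and 157 with the replicate block (51.5%, against 44.8%).

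The 2 genotypes were then set against each other under each stimulus. With FN 173 Zfp genes were higher and 19 lower in KO than in WT cells, against 21% and 17.6% of all genes. At LPS 10 ng/ml 63 were higher and 11 lower, against 8.05% and 7.85%, and at LPS 0.1 ng/ml 40 were higher and 6 lower, against 2.97% and 6.33% (9.3% together). Zfp395 had 16.6, 17 and 11.6 CPM in KO cells with FN, against 1.11, 1.31 and 1.08 CPM in WT cells with FN (3.69 ± 0.35, adjusted p = 1.74e-07). Zfp810 had 7.17, 9.68 and 5.70 CPM in KO cells with FN, against 0.418, 0.802 and 1.21 CPM in WT cells with FN (3.20 ± 0.36, adjusted p = 1.13e-06). Zfp94 (2.26), Zfp161, now named Zbtb14 (2.15), Zfp398 (2.15) and Zfp41 (2.14) were also higher in KO cells with FN. In the other direction Zfp800 had 34.6, 26.4 and 40.6 CPM in KO cells with FN, against 134, 156 and 113 CPM in WT cells with FN (-1.99 ± 0.30, adjusted p = 3.43e-05). Zfp811 was lower in KO than in WT cells at LPS 0.1 ng/ml (-2.58 ± 0.61, adjusted p = 0.00981), with 0.855, 1.62 and 1.63 CPM in KO cells and 11.2, 10.4 and 2.97 CPM in WT cells, a call that ends without WT replicate 1.

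The counts at the 2 LPS doses depend on single libraries and on the model. Where no share of all tested genes is given here, only the number of calls can be compared. At LPS 0.1 ng/ml the 46 calls become 93 without WT replicate 3, 11 without WT replicate 2, 13 without WT replicate 1, 27 without KO replicate 2 and 16 without KO replicate 3. They become 115 with the replicate block (37.7%, against 18.9% of all genes), 72 by DESeq2 and 0 in a fit of those 6 libraries alone. At LPS 10 ng/ml the 74 calls become 38 without KO replicate 3 and 47 without WT replicate 2, 124 with the replicate block (40.7%, against 25.1% of all genes), 170 on library totals (55.7%, against 30.8%) and 17 in a fit of those libraries alone.

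**Figure D5:**
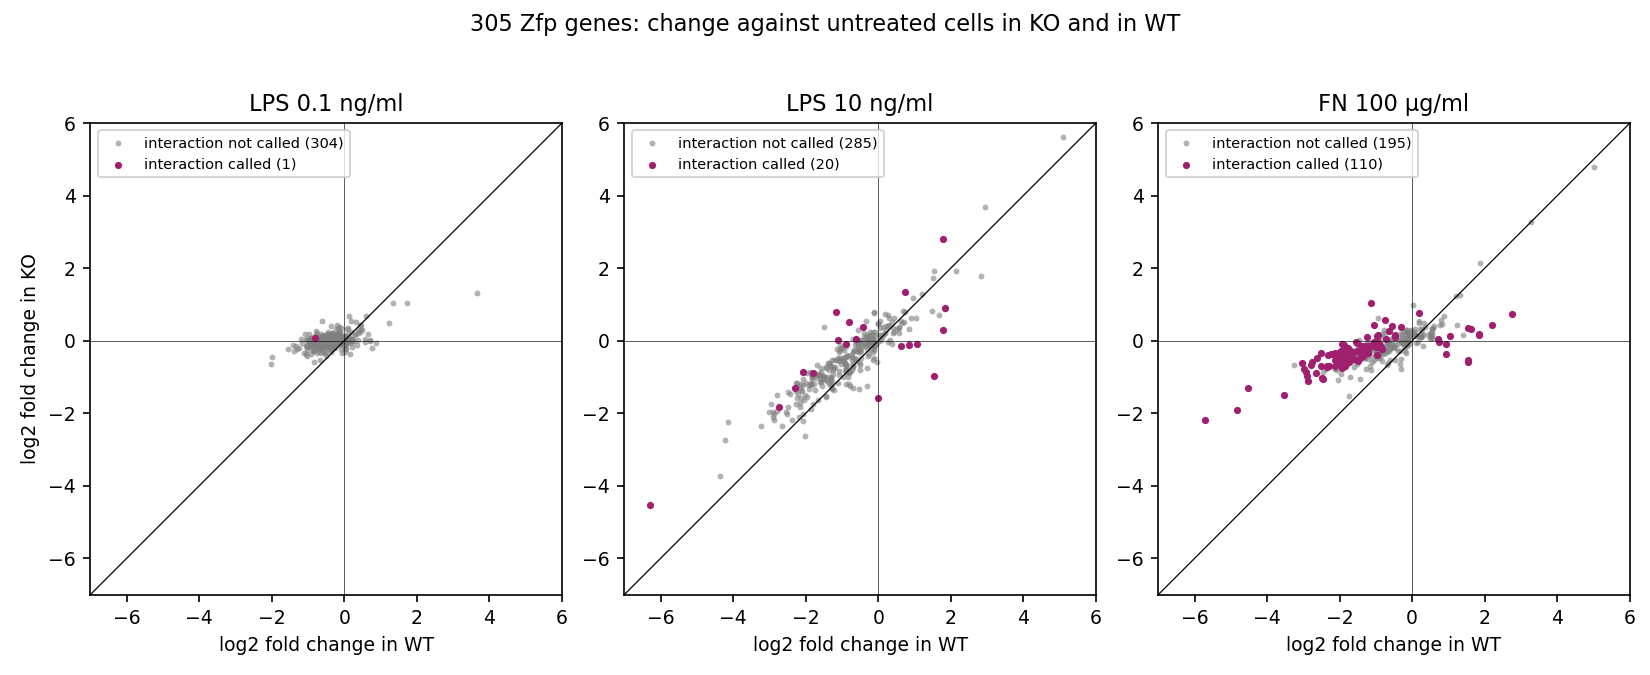
Log2 fold change against untreated cells in KO (vertical) and in WT (horizontal) of 305 Zfp genes for each stimulus, with the line of equal change. Genes whose change differed between the genotypes (interaction, adjusted p under 0.05) are purple, 1 at LPS 0.1 ng/ml, 20 at LPS 10 ng/ml and 110 with FN. These are 0.328%, 6.56% and 36.1%, against 2.29%, 5.28% and 23.1% of all tested genes. With FN most purple points lie above the line on the left, where the fall was smaller in KO cells.

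The difference between the genotypes in their response was tested as an interaction, taking the log2 fold change of WT cells from that of KO cells. With FN it was called for 110 Zfp genes, 97 above 0 and 13 below 0, against 11.8% and 11.3% of all genes, and its median over the 305 genes was 0.69. At LPS 10 ng/ml 13 were above 0 and 7 below, against 1.96% and 3.32% of all genes (5.28% together), and at LPS 0.1 ng/ml 1 was above 0 and none below, against 0.188% and 2.11% (2.29% together). By DESeq2 12 were called at LPS 0.1 ng/ml and by limma 4, and 50 had an unadjusted p under 0.05 by edgeR. These 3 counts are given without the shares of all tested genes. At LPS 10 ng/ml 122 genes fell in both genotypes, which is 94.6% of those that fell in KO and 69.7% of those that fell in WT cells, and with FN 17 did, 89.5% and 9.5%. Over all tested genes the same shares were 86.5% and 71.7% at LPS 10 ng/ml and 84.9% and 23% with FN. Across the 305 genes, which are not independent replicates, Pearson's r between the changes in KO and in WT was 0.898 at LPS 10 ng/ml, 0.777 with FN and 0.587 at LPS 0.1 ng/ml.

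Few Zfp genes took opposite directions in the 2 genotypes, which was not counted over all tested genes. Zfp275 rose in KO cells and fell in WT cells with both strong stimuli: at LPS 10 ng/ml it had 34.6, 42.0 and 57 CPM in KO cells and 14.9, 12.8 and 11.5 CPM in WT cells. Its untreated levels were 25, 23.2 and 29.5 CPM in KO cells and 28.4, 31.3 and 28.0 CPM in WT cells, and the interaction was 1.94 ± 0.22 (adjusted p = 8.79e-05). Zfp961 did the reverse at LPS 10 ng/ml, with 4.03, 4.79 and 5.76 CPM in KO cells and 22.6, 21.0 and 29.7 CPM in WT cells, against untreated levels of 9.06, 8.80 and 11 CPM in KO cells and 9.35, 7.19 and 8.63 CPM in WT cells (interaction -2.52 ± 0.29, adjusted p = 8.79e-05). With FN, Zfp945 fell in KO cells (-0.53) and rose in WT cells (1.55), and Zfp768 rose in KO cells (0.41) and fell in WT cells (-0.55), of which the rise of Zfp768 loses its call on library totals and without KO FN replicate 3.

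The interaction counts also moved, and for fits that leave out 1 library the share over all tested genes was not computed. The 20 at LPS 10 ng/ml become 8 without KO LPS 10 ng/ml replicate 3, 12 without WT LPS 10 ng/ml replicate 1, 10 without untreated KO replicate 2 and 11, 13 and 12 without untreated WT replicates 1, 2 and 3. They become 84 with the replicate block (27.5%, against 21.7% of all genes) and 46 on library totals (15.1%, against 8.97%). The 1 at LPS 0.1 ng/ml becomes 11 without WT LPS 0.1 ng/ml replicate 3, 7 without the Rn45s-rich libraries and 69 with the block (22.6%, against 13.4% of all genes), and the 110 with FN become 201 with the block (65.9%, against 49.3%) and 220 on library totals (72.1%, against 43.7%).

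Members with a described role did not move as 1 group. Of the regulators of general transcription, Zfp143, an activator of small nuclear RNA and many housekeeping promoters, rose by 0.75 in WT cells at LPS 10 ng/ml, as did Zfp131 (0.68) and Zfp335 (0.26), which T cell maturation needs. Zfp148 and Zfp384 were not called in any of the 6 stimulated groups. Of those that silence genes, Zfp809, which recruits TRIM28 to retroviral DNA in mouse embryonic stem cells, fell at LPS 10 ng/ml by 0.88 in KO cells and by 1.79 in WT cells. Zfp57, which keeps imprints, and Zfp568, which represses a placental Igf2 transcript, were not called. Zfp57 was poorly estimated, so its missing call says little: the standard error of its interaction at LPS 10 ng/ml was 2.54, against 0.24 for Zfp809. Of members that act on proteins, Zfp598 rose in 5 of the 6 stimulated groups (on library totals not in WT cells at LPS 0.1 ng/ml), Zfp451, a SUMO ligase, fell with LPS 10 ng/ml (-1.07) and FN (-1.0) in WT cells, and Zfp91, a ubiquitin ligase of the non-canonical NF-kB pathway, was uncalled (-0.42 in WT cells at LPS 10 ng/ml). Zfp207, which loads the checkpoint protein BUB3 at kinetochores, rose by 0.41 there. Zfp110 (-0.90) and Zfp369 (-2.22), which code for relatives that bind the p75 neurotrophin receptor, both fell, as did Zfp318 (-0.61), which controls IgD splicing in B cells. Zfp608 fell (-2.01) and its relative Zfp609 rose (0.45).

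Partners of these proteins and other zinc finger families were counted from lists written from general knowledge, beside 26.1% lower and 23.3% higher among all tested genes and their median of -0.01. Of 19 tested genes of the KRAB corepressor machinery, 9 fell and 3 rose in WT cells at LPS 10 ng/ml, with a median log2 fold change of -0.57. Trim28 fell by 0.50 ± 0.09 (adjusted p = 7.59e-05) and Setdb1 by 1.23 ± 0.17 (adjusted p = 6.75e-06). Setdb1 is the methyltransferase of the complex, and in KO cells it fell by 0.90 at LPS 10 ng/ml and by 0.53 with FN. The DNA methyltransferases Dnmt1 (-1.67) and Dnmt3a (-1.16) fell as well, and the histone H3.3 chaperone Daxx rose by 4.85 ± 0.33 (adjusted p = 1.51e-09). Of the Zscan and Zkscan genes, which carry the same fingers beside a SCAN domain, 10 of 15 fell and 1 rose, with a median of -0.91. Of 32 Zbtb genes, whose fingers follow a BTB domain, 14 fell and 5 rose (median -0.30), also a tilt to falls. Of 12 Klf genes 3 fell and 3 rose, shares near those of all genes, with a median of 0.41.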

How the data were processed

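RNA of 24 microglia libraries was sequenced from a TruSeq RNA kit on a HiSeq2000, per the labels' protocols. The submitters' processing notes name the aligner Bowtie2 2.1.0 and the counter HTSeq 0.5.4, with DESeq, SAMtools 0.1.19, CASAVA 1.8.2, FastQC 0.10.0 and the mm10 build; the gene annotation and the use of strand are not given in the sources used here. The deposited count table holds whole reads per gene symbol, and the deposited normalized signal is those counts over 1 size factor for each library, with gaps of at most 0.144. Reads of overlapping genes cannot be told apart without strand, and 37 Zfp genes have over 10% of their exons under another gene.

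Counts were tested in edgeR 4.0.16 (R 4.3.3) with filterByExpr (minimum count 10, minimum total 15), TMM scaling and a robust quasi-likelihood fit of 8 groups, which leaves 16 residual degrees of freedom; 17 contrasts were tested, each adjusted over 13294 genes. The p-values measure the spread between libraries. Shares of called genes are given without an error: all genes rest on the same 3 libraries in each group and are not independent of each other. Members and lists were chosen with earlier results of these data known. Genes were named by rule: up to 10 largest rises and falls (6 in other contrasts) among called members whose groups did not overlap and whose higher group averaged 2 CPM or more, up to 3 uncalled members of highest level, and a list of 28 members with a described role. No protein table was at hand, so fingers and the KRAB pattern were read from the longest reading frame of GENCODE transcripts. The scripts were tested on simulated data for WT LPS 10 ng/ml against untreated. They called 44 of 100 genes changed by 1 on the log2 scale and 76 of 100 changed by 2, with 9 false calls. Changed genes can thus go uncalled. Only these genes among 12875 were changed in the simulation, and it held no replicate pairing. In the real comparison 49.4% of all tested genes were called, so the simulated shares do not give its power. Figures were drawn with matplotlib 3.10.9.

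Same-numbered libraries were compared over 9582 genes: within a genotype their deviations from the group means correlated at 0.642 to 0.967 (36 pairs), those of other numbers at -0.785 to 0.391, so the numbers pair the libraries of a genotype. Across the genotypes, pairs that shared treatment and number ran from 0.209 to 0.878, but pairs that shared treatment alone ran from -0.793 to 0.752, which overlaps, so the pairing across genotypes is less clear. The pairing comes from the data: titles carry the number and a letter, b for number 2 and a for 1 and 3, whose meaning is not given. The block was the number nested in genotype (6 blocks) for stimulus and interaction contrasts and the number over all libraries (3 blocks) for KO against WT. Unless a block is named, counts, standard errors and p-values come from the fit without it, which leaves this pairing out. Several counts of calls were much larger with the block, such as 158 falls instead of 40 in WT cells at LPS 0.1 ng/ml. Alternatives were RLE scaling, library totals, no filter, 5 CPM in 3 libraries, DESeq2 1.42.0, limma 3.58.1 on log2 of the normalized signal plus 1, a replicate block, the compared groups alone and leaving out each library. Leaving out the 3 Rn45s-rich libraries was added after seeing the data.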

Additional observations from a re-analysis of the deposited data

Results flagged for a closer look

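The change with a stimulus differed between KO and WT cells, by the interaction test of edgeR, for 1 Zfp gene at LPS 0.1 ng/ml, 20 at LPS 10 ng/ml and 110 with FN. These are 0.328%, 6.56% and 36.1% of the Zfp genes, against 2.29%, 5.28% and 23.1% of all tested genes. The share was thus below that of all genes at LPS 0.1 ng/ml and near it at LPS 10 ng/ml. All values are log2 fold changes in KO cells minus those in WT cells, between groups of 3 libraries.

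At LPS 0.1 ng/ml the gene was Zfp120 (0.88, adjusted p = 0.019), a call that ends without KO LPS 0.1 ng/ml replicate 3, WT replicate 1 or 2 there, untreated KO replicate 2 or untreated WT replicate 3. At LPS 10 ng/ml the values above 0 were led by Zfp275 (1.94), Zfp395 (1.77), Zfp607 (1.31), Zfp770 (1.22), Zfp503 (1.12) and Zfp263 (1.0). Of these, Zfp395 fell in both genotypes, by less in KO cells, and Zfp263 rose in both, by more in KO cells. Values below 0 were led by Zfp961 (-2.52), Zfp324 (-1.58), Zfp945 (-1.49), Zfp213 (-1.16), Zfp777 (-0.97) and Zfp319 (-0.94). The calls of Zfp395, Zfp607, Zfp503, Zfp324 and Zfp319 end without any of 5 or more single libraries of the 12 compared, and that of Zfp770 without KO LPS 10 ng/ml replicate 3. Zfp324 and Zfp777 also lose their calls on library totals.

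With FN the values above 0 were led by Zfp395 (3.55), Zfp810 (3.21), Zfp791 (2.92), Zfp398 (2.43), Zfp69 (2.20) and Zfp275 (2.17), and those below 0 by Zfp961 (-2.10), Zfp945 (-2.08), Zfp800 (-2.01), Zfp697 (-1.78), Zfp319 (-1.69) and Zfp382 (-1.66). None of these 12 calls ended when 1 library was left out, and Zfp791 missed the threshold with limma.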

How the results depend on the processing

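Of 197 recomputed counts that leave out no single library, 148 stayed within 1.5 times the reported one. Library totals gave 5 higher and 85 lower (WT LPS 0.1 ng/ml), 11 higher (WT LPS 10), 13 higher (WT FN), 1 higher (KO LPS 0.1), 12 higher and 211 lower (KO LPS 10), 7 higher (KO FN), 2, 46 and 220 interactions (LPS 0.1, LPS 10, FN), 170 for KO against WT at LPS 10, 222 for LPS 10 against 0.1 in WT, and 131 for FN against LPS 10 in KO; Zfp871 turned to -0.60 (WT LPS 10) and -0.59 (WT FN). The replicate block nested in genotype gave 18 higher and 158 lower (WT LPS 0.1), 4 higher (KO LPS 0.1), 44 higher (KO LPS 10), 35 higher and 92 lower (KO FN), 69, 84 and 201 interactions, 217 for the doses in KO and 157 for FN against LPS 10 in KO, and the replicate block over all libraries gave 115 and 124 for KO against WT (LPS 0.1, LPS 10); the other counts stayed within 1.5 times. Fits of the compared groups alone gave 4 higher and 19 lower (WT LPS 0.1), 1 higher (KO LPS 0.1), 6 higher and 11 lower (KO FN), 9 interactions (LPS 10), 0 and 17 for KO against WT (LPS 0.1, LPS 10), 61 for the doses in WT and 12 for FN against LPS 10 in KO. RLE and no filter gave 1 higher (KO LPS 0.1), with 3 interactions (LPS 0.1) by RLE and 13 (LPS 10) without filter. The 5 CPM filter gave 3 interactions at LPS 0.1, DESeq2 12 and limma 4, and DESeq2 72 for KO against WT at LPS 0.1. Without the Rn45s-rich libraries, 83 fell (WT LPS 0.1), 1 rose (KO LPS 0.1), 7 interactions (LPS 0.1) and 73 for the doses in WT were called.

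Leaving out 1 library gave 12 to 85 lower (WT LPS 0.1), 1 to 2 higher (KO LPS 0.1), 9 to 24 lower (KO FN), 0 to 11 and 8 to 27 interactions (LPS 0.1, LPS 10), 11 to 93 and 38 to 89 for KO against WT (LPS 0.1, LPS 10), 79 to 135 for the doses in WT and 24 to 66 for FN against LPS 10 in KO. Of 3042 alternatives over 215 gene results 2857 kept direction and call and 171 lost the call. The cause of these shifts was not tested. Falling genes near 0 CPM rest on few reads, so their fold changes are imprecise.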

Other observations

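In 9 Zfp genes, picked after the levels were seen, 1 replicate number stood more than 1.5 times above both others in all 8 groups, in KO and WT cells alike. Zfp433 had 4.25 to 7.65 CPM in the 8 libraries numbered 1 and 0 to 0.509 CPM in the 16 others. Zfp781, which lies near it on chromosome 10, had 1.60 to 4.53 CPM in the libraries numbered 1 and 0 to 0.277 CPM in the others. Zfp960 and Zfp97 lie close together on chromosome 17, with 2.09 to 4.26 and 2.09 to 4.77 CPM in the libraries numbered 1, against 0.146 to 0.733 and 0.420 to 1.18 CPM in the others. Zfp617, Zfp747 and Zfp947 were also highest under number 1, and Zfp462 (6.45 to 12.8 CPM, against 0.610 to 4.04 CPM) and Zfp507 under number 2. Every group holds 1 library of each number, and the titles give number 2 the letter b and numbers 1 and 3 the letter a, without saying what either marks.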
